A study of Homo sapiens with 18 samples.

Results

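MYC, MYCN and MYCL, their shared partner MAX, the repressing partners MXI1, MXD1, MXD3, MXD4 and MNT, and MLX were followed in RNA Seq counts of 2 prostate cancer cell lines. These 10 genes were taken by symbol from the 60675 genes listed in each library, and each symbol matched 1 Ensembl gene. LNCaP is an androgen-dependent line and C4-2 is its androgen-independent derivative, and both are established lines that express androgen receptor. Both lines had 3 libraries per group. Vehicle cells carried a non-targeting siRNA (siScr), a second group carried siScr and received the synthetic androgen R1881 at 1 nM for 72 h, and the third had the same R1881 and pooled siRNAs to the histone demethylases KDM1A and KDM7A (dual knockdown). Transient siRNA leaves part of the target mRNA, and these are bulk cultures, so fewer expressing cells and less RNA per cell cannot be told apart. All cells were in medium with hormone-depleted serum, which the labels give as charcoal-stripped, so the vehicle groups stand for androgen-deprived cells. No library analysed here had 1 demethylase knocked down alone, or had the dual knockdown without R1881.

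MYC, MYCN and MYCL are transcription factors that bind DNA as pairs with MAX and switch on genes for ribosomes, metabolism and growth. MXI1, MXD1, MXD3, MXD4 and MNT pair with the same MAX, bind the same E-box sites and recruit SIN3 and histone deacetylases, so they hold down genes that MYC switches on. MLX is the MAX-like partner of the glucose-sensing factors MLXIP (MondoA) and MLXIPL (ChREBP), and it can also pair with MXD1, MXD4 and MNT. In prostate cancer, MYC is often gained or overexpressed, and androgen receptor and MYC programmes are studied together.

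Total counts ranged from 10485096 to 20154243 in 17 libraries and were 3182604 in C4-2 vehicle replicate 3, so that library gave the least precise values. It stood apart from its group, with a chi-square per gene of 18.6 and 18.3 against its replicates, which differed from each other by 5.41. Whether it differs from them in more than depth was not tested. C4-2 dual knockdown replicate 1 also stood apart from its group, with a chi-square per gene of 17.4 and 15.3 against its replicates, which differed from each other by 3.57. For the 3 C4-2 vehicle libraries the cell line field says LNCaP while the titles say C4-2, and they were grouped by title. In these 3 libraries PCAT1, a long non-coding RNA near MYC, was at 4.97 to 8.74 counts scaled to 1e6 per library (CPM), against 57.9 to 91.8 CPM in the 9 LNCaP libraries and 3.99 to 5.14 CPM in the other C4-2 libraries. The summed CPM of 8 luminal prostate markers ranged from 2342 to 11159, while 3 basal markers summed to at most 1.55 CPM, 3 immune markers to at most 3.74 CPM and 3 neuroendocrine markers to at most 3.57 CPM. Of 3 stromal markers, COL1A1 reached 37.8 CPM, ACTA2 6.27 CPM and COL1A2 0.12 CPM. KDM1A fell from 108 ± 4.45 CPM (SD, n = 3) to 51.6 ± 2.86 CPM with the dual knockdown in LNCaP and from 142 ± 3.22 to 16.4 ± 3.03 CPM in C4-2. KDM7A fell from 59.8 ± 5.02 to 30.9 ± 2.94 CPM in LNCaP and from 120.5 ± 10.0 to 21.2 ± 2.88 CPM in C4-2. The knockdown was deeper in C4-2 than in LNCaP for both targets, by a log2FC of -2.04 for KDM1A (SE 0.121, adjusted p = 2.36e-09) and -1.56 for KDM7A (SE 0.141, adjusted p = 6.06e-07) in edgeR's test of the interaction.

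The E-box CACGTG is the sequence that MYC, MXD and MLX pairs recognise, so it was looked for in RefSeq promoter windows of GRCh38.p14 that run from 250 bases before to 50 bases after a gene start. Windows were found for 9 of the 10 genes, 12 in all since MXI1 has 3 and MAX has 2, and MYC was without one. CACGTG reads the same on both strands, and it was present once each in the windows of MXD4, MNT and MLX, which is 3 of 12 windows, against 2548 of 35116 windows of all genes (7.26%). The androgen response element half-site AGAACA, searched on both strands, was in 1 of the 12 windows, the first of MXI1, against 14.8% of all windows. The windows that hold the E-box are given 5′ to 3′ in the direction of the gene, with the E-box in capitals. Sequence outside the windows was not searched.
MXD4, chr4:2262060-2262359, minus strand: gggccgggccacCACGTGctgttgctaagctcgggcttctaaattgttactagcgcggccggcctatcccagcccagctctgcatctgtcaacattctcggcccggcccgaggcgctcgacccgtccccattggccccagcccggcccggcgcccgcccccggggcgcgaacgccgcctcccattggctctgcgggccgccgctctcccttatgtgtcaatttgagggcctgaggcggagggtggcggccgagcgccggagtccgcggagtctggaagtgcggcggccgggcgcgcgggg
MNT, chr17:2401011-2401310, minus strand: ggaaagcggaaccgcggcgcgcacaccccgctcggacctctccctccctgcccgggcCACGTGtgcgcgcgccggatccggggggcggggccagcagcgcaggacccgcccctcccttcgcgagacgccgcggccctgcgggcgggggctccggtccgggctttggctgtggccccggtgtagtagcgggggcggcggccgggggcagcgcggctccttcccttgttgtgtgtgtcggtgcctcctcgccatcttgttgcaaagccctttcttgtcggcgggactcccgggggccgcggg
MLX, chr17:42566850-42567149, plus strand: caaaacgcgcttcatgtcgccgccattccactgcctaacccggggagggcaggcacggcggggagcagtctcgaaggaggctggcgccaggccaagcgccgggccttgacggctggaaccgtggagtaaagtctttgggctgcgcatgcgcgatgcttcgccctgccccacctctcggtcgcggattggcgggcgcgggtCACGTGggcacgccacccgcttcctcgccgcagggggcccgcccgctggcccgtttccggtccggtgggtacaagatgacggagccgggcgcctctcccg
The first base of the E-box lay 238 bases before the start in MXD4, 193 before it in MNT and 50 before it in MLX. The letters are a description and were not tested as sites.

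Transcript levels per length placed MYC far above every other member. Mean MYC level was between 59.4 ± 4.58 RPKM (CPM per kilobase of exon, SD, n = 3) in siScr C4-2 with R1881 and 81.5 ± 3.96 RPKM in dual knockdown LNCaP. The next member in the order was MXI1 in vehicle LNCaP at 20.1 ± 0.695 RPKM and MLX in the other 5 groups at 22.9 ± 0.374 to 28.1 ± 0.228 RPKM. Group means of MXI1, MXD4 and MAX were between 9.85 and 20.1 RPKM. MNT, MXD1, MYCL and MXD3 were the low members, with group means between 1.38 and 5.85 RPKM. Exon bases shared with other genes were part of the lengths, 40.4% of them in MXD3, 18.1% in MLX and 12.2% in MNT. The order over unshared bases was not tried. Some neighbours in the order had ranges of the mean plus or minus 1 SD that overlapped. In vehicle LNCaP these were MXI1 and MXD4 (17.4 ± 2.17 RPKM), MXD4 and MLX (15.8 ± 0.880 RPKM), and MXD3 and MYCL, and with R1881 they were MXD4 and MXI1, and MYCL and MNT. In C4-2 they were MXD3, MYCL and MXD1 with vehicle, MXD4 and MAX with R1881, and MXI1, MXD4 and MAX as well as MXD3, MYCL and MXD1 with the dual knockdown.

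MYCN, the neural and neuroendocrine relative of MYC, was at or under the limit of detection. It had 2 counts in all 18 libraries together, 1 in LNCaP vehicle replicate 1 and 1 in siScr LNCaP with R1881 replicate 2, and 0 in the other 16. A count of 0 allows up to 3 counts, which is 0.149 CPM in the deepest library and 0.943 CPM in C4-2 vehicle replicate 3. MYCN did not pass the filter on low counts and was not tested, while the other 9 members passed in every fit.

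Per kilobase of exon, the mRNA of the repressing partners together was below that of MYC in all 6 groups. Summed over MXI1, MXD1, MXD3, MXD4 and MNT, the level was 46.6 ± 2.39 RPKM in vehicle LNCaP, 40.7 ± 1.08 RPKM with R1881 and 45.4 ± 0.669 RPKM with the dual knockdown. In C4-2 the sums were 39.0 ± 0.728, 37.3 ± 1.22 and 36.5 ± 2.78 RPKM in the same order. The ratio of MYC to this sum was 1.71 ± 0.0453, 1.82 ± 0.0791 and 1.79 ± 0.0807 in LNCaP, and 1.70 ± 0.104, 1.59 ± 0.0746 and 1.70 ± 0.0211 in C4-2, so that it stayed between 1.53 and 1.91 in every library. Its make-up shifted with R1881, as MXD1 was 6.50% of it in vehicle LNCaP and 12.8% with R1881, and in C4-2 MXD1 went from 4.65% to 7.46%. These are shares of mRNA and not of protein. RPKM divides by all annotated exon bases of a gene, 3001 for MYC and 4607 (MXI1) to 8728 (MNT) for the partners. The sum, the ratio and the shares depend on these lengths, and the lengths of single transcripts or of unshared bases were not tried.

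**Figure D1:**
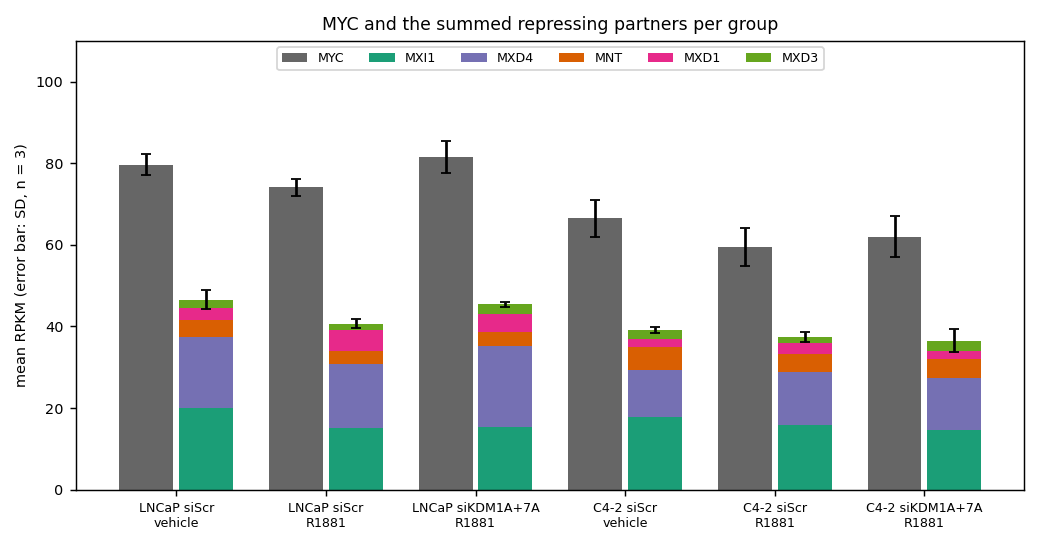
Mean RPKM of MYC (grey) and of the 5 repressing partners stacked on each other, for the 6 groups, with error bars of 1 SD of MYC and of the sum (n = 3). MYC stands at 59.4 to 81.5 RPKM and the stacked partners at 36.5 to 46.6 RPKM, and MXI1 and MXD4 make up most of each stack.

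R1881 against vehicle asked how androgen moved the network in siScr cells. In both lines MYCL, MXD1 and MLX rose and MXD3 and MNT fell, and MYC itself was not called in either. In LNCaP 3 members rose and 4 fell among 9 tested, where 23.5% of all genes tested rose and 23.2% fell. In C4-2 3 rose and 2 fell, where 17.1% rose and 15.7% fell. A gene was called at an adjusted p under 0.05 in edgeR's quasi-likelihood test over all genes.

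MYC was at 242.7, 229.9 and 244.5 CPM in the vehicle libraries of LNCaP and at 221.4, 216.4 and 229.1 CPM with R1881. The R1881 libraries lay below all vehicle libraries, with replicate 3 of R1881 close under replicate 2 of vehicle. The log2FC was -0.12 (SE 0.0572, adjusted p = 0.0925), and its interval reached from -0.24 to 0. In C4-2 MYC was at 189.5, 194.0 and 215.0 CPM with vehicle and 194.1, 169.1 and 171.8 CPM with R1881, and the groups overlapped. Its log2FC there was -0.16 (SE 0.0841, adjusted p = 0.161), and -0.10 (adjusted p = 0.381) without vehicle replicate 3, the shallow library. MAX, the partner with which MYC, MYCN and MYCL bind DNA, was at 52.1, 45.3 and 50.8 CPM in vehicle LNCaP and 43.5, 45.7 and 41.8 CPM with R1881, and 1 library of R1881 lay above the lowest vehicle library. It fell by 0.19 on the log2 scale (adjusted p = 0.0423), a call that was lost in 8 of 9 fits that left out 1 library, with adjusted p from 0.0581 to 0.192 (all but vehicle replicate 2), and under DESeq2 (adjusted p = 0.0898). In C4-2 its log2FC was -0.01 (adjusted p = 0.954).

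MYCL (ENSG00000116990, GRCh38 chromosome 1, 39895426 to 39902256), the relative of MYC first known from lung cancer, had the largest log2FC among the 9 members in both lines. Its levels in LNCaP were 9.19, 8.21 and 9.23 CPM with vehicle and 16.4, 18.1 and 17.2 CPM with R1881. In C4-2 they were 9.47, 9.22 and 9.91 CPM with vehicle and 17.1, 15.8 and 16.7 CPM with R1881. The groups were far apart in both lines. MYCL rose by a log2FC of 0.95 in LNCaP (SE 0.105, adjusted p = 1.12e-06) and 0.80 in C4-2 (SE 0.117, adjusted p = 0.000103). The exact permutation p was 0.1 for each, the smallest that 3 libraries against 3 can give. Without the shallow vehicle library the C4-2 log2FC was 0.82 (adjusted p = 8.76e-05).

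Among the repressing partners, MXD1 and MXD3 moved in opposite directions. MXD1 (ENSG00000059728, chromosome 2, 69897688 to 69942945), which rises as many cell types differentiate, was at 20.5, 17.9 and 19.3 CPM in vehicle LNCaP and at 29.1, 36.1 and 34.1 CPM with R1881. In C4-2 it went from 11.1, 11.5 and 11.9 CPM to 20.1, 16.4 and 16.6 CPM. Every R1881 library lay above every vehicle library of its line, and the log2FC was 0.77 in LNCaP (SE 0.0909, adjusted p = 2.39e-06) and 0.63 in C4-2 (SE 0.128, adjusted p = 0.00168). With all C4-2 libraries thinned to the depth of the shallow one it was 0.52 there (adjusted p = 0.0706). MXD3 (ENSG00000213347, chromosome 5, 177301461 to 177312757), which is expressed in dividing cells, went from 11.8, 9.37 and 9.89 CPM to 9.14, 7.03 and 6.84 CPM in LNCaP and from 12.6, 10.2 and 10.5 CPM to 8.41, 7.19 and 5.69 CPM in C4-2. R1881 lay below vehicle in all libraries of both lines, with the closest pair at 9.37 and 9.14 CPM. MXD3 fell by 0.43 on the log2 scale in LNCaP (SE 0.142, adjusted p = 0.0201) and by 0.66 in C4-2 (SE 0.181, adjusted p = 0.0121). The LNCaP call was lost without vehicle replicate 1 (adjusted p = 0.0787), R1881 replicate 2 (0.0819) or R1881 replicate 3 (0.105), and the C4-2 call without vehicle replicate 1 (0.0824) or R1881 replicate 3 (0.0735). Thinned to the smallest library of each line, the adjusted p was 0.091 in LNCaP and 0.0214 in C4-2.

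Exons of MXD3 overlap RAB24, a GTPase gene, and PRELID1 for 40.4% of their bases, and the counting was not set to use strand. RAB24 fell with R1881 in LNCaP (log2FC -0.49, adjusted p = 0.0101) and in C4-2 (log2FC -0.53, adjusted p = 0.041), and PRELID1 had a log2FC of 0.22 (adjusted p = 0.0462) and -0.01 (adjusted p = 0.958). How read pairs over these shared bases were assigned was not examined, and the part of the neighbours in the MXD3 result was not tested.

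MNT (ENSG00000070444, chromosome 17, 2384060 to 2401118), a MAX partner found in most cell types and a holder of the E-box above, fell in both lines. It was at 37.8, 33.6 and 35.2 CPM in vehicle LNCaP and 31.4, 22.3 and 27.9 CPM with R1881, and in C4-2 at 55.3, 53.3 and 44.6 CPM with vehicle and 32.1, 41.9 and 39.5 CPM with R1881. The groups did not overlap in either line. MNT fell by 0.39 in LNCaP (SE 0.106, adjusted p = 0.00643) and by 0.46 in C4-2 (SE 0.112, adjusted p = 0.00592) on the log2 scale, and the call stood in all fits that left out 1 library. MXI1, the most abundant repressing partner in vehicle cells per length, lay at 88.8 CPM or more in the 3 vehicle libraries of LNCaP and at 64.3, 75.3 and 69.9 CPM with R1881, so the groups did not overlap. It fell by 0.42 (SE 0.0669, adjusted p = 6.14e-05) in LNCaP, while in C4-2 its libraries overlapped, from 74.0, 83.5 and 89.7 CPM to 77.4, 68.7 and 72.03 CPM, with a log2FC of -0.17 (adjusted p = 0.163). The difference of the MXI1 responses was 0.24 (SE 0.108, adjusted p = 0.158). For MXD4 the LNCaP groups overlapped (log2FC -0.16, adjusted p = 0.176), and its C4-2 log2FC was 0.19 (adjusted p = 0.224), where its R1881 libraries at 88.0 to 94.6 CPM lay above vehicle at 76.3 to 82.0 CPM.

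**Figure D2:**
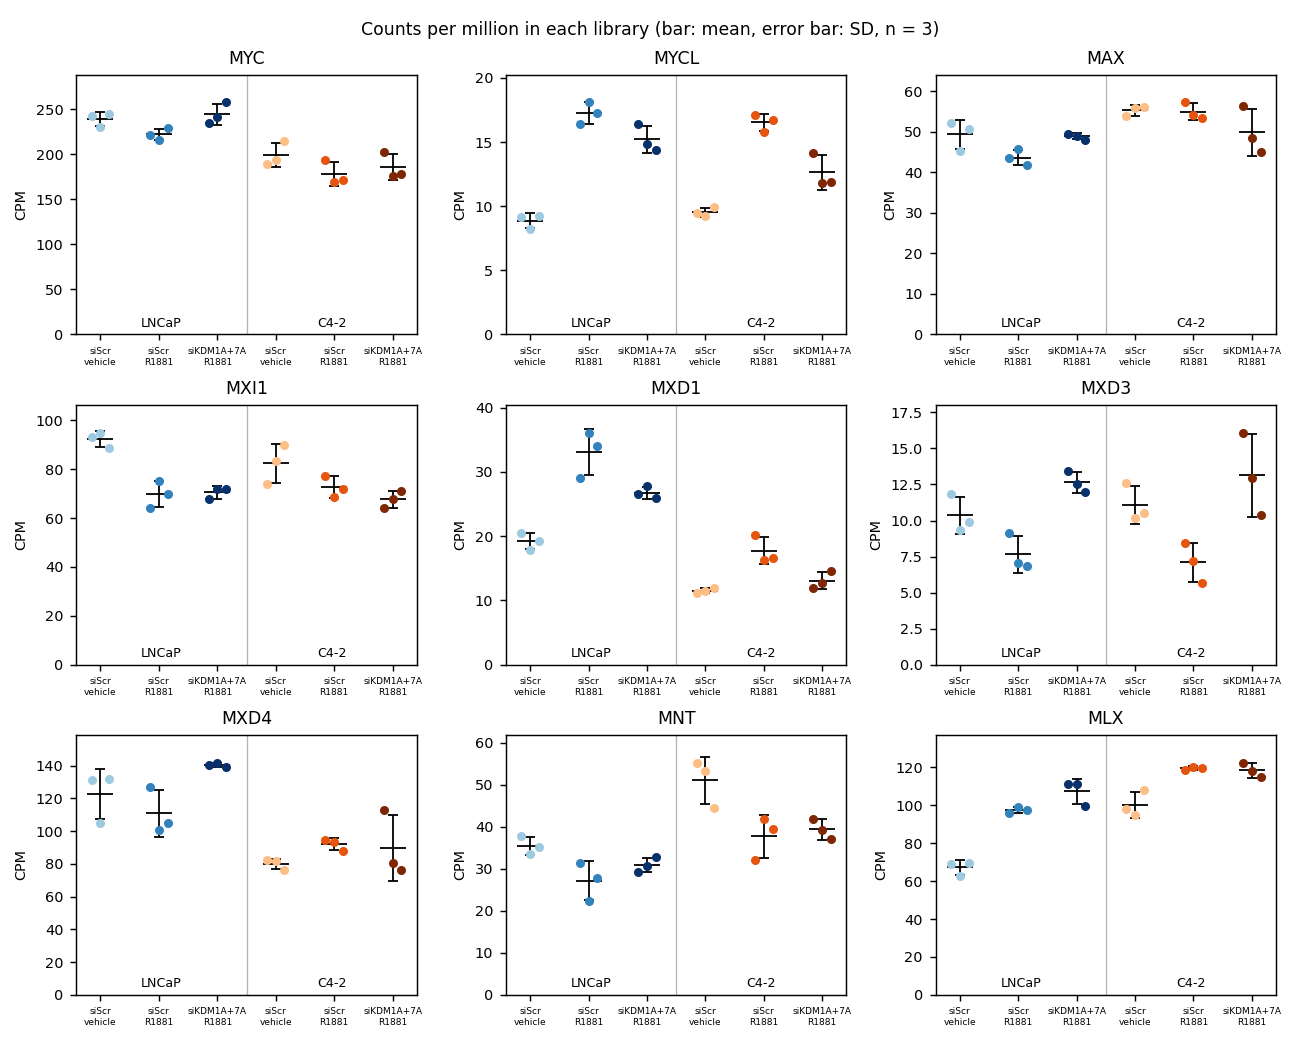
CPM of the 9 detected members in each library, by group, with the mean and SD (n = 3). MYCL moves from 8.21 to 9.23 up to 16.4 to 18.1 CPM with R1881 in LNCaP, MXD1 rises from 17.9 to 20.5 up to 29.1 to 36.1 CPM in LNCaP, and MXD3 is lowest in siScr cells with R1881.

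MLX (ENSG00000108788, chromosome 17, 42567068 to 42573239), whose promoter window also has the E-box, rose in both lines. Its vehicle libraries in LNCaP were at 69.1, 62.9 and 69.5 CPM and its R1881 libraries at 96.1, 99.3 and 97.7 CPM. In C4-2 MLX went from 98.1, 94.8 and 107.8 CPM to 118.5, 120.3 and 119.8 CPM, so that vehicle C4-2 was already near the R1881 level of LNCaP. The log2FC was 0.53 in LNCaP (SE 0.0669, adjusted p = 5.85e-06) and 0.26 in C4-2 (SE 0.0740, adjusted p = 0.0152). The C4-2 call was lost without vehicle replicate 1 (adjusted p = 0.0661), vehicle replicate 2 (0.083) or R1881 replicate 3 (0.0535), and without the shallow vehicle replicate 3 the log2FC was 0.31 (adjusted p = 0.00564). Thinned to the depth of that library it was 0.17 (adjusted p = 0.224). MLX was the 1 member whose response to R1881 differed between the lines, by -0.28 (SE 0.0922, adjusted p = 0.0487), where 6.05% of all genes had a higher and 7.95% a lower response in C4-2. The call was lost in 14 of 18 fits that left out 1 library, C4-2 vehicle replicate 3 among them (-0.23, adjusted p = 0.12), with adjusted p up to 0.157, and with the replicate block (adjusted p = 0.0724). MLX shares 18.1% of its exon bases with PSMC3IP on the other strand, whose log2FC was -0.03 (adjusted p = 0.857) in LNCaP and -0.50 (adjusted p = 0.00491) in C4-2.

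MLXIP and MLXIPL, the partners of MLX, fell in both lines. MLXIP fell from 170.0 ± 2.52 to 116 ± 11.5 CPM in LNCaP (log2FC -0.56, adjusted p = 3.22e-05) and from 191 ± 9.74 to 146 ± 9.13 CPM in C4-2 (log2FC -0.39, adjusted p = 0.00181). MLXIPL fell from 7.71 ± 1.75 to 3.42 ± 0.504 CPM in LNCaP (log2FC -1.16, adjusted p = 0.000115) and from 10.1 ± 0.629 to 5.72 ± 0.905 CPM in C4-2 (log2FC -0.81, adjusted p = 0.00147). TXNIP and ARRDC4, arrestin-like genes that MondoA is known to switch on when glucose metabolites build up, were called lower in LNCaP and not in C4-2. TXNIP dropped from 286 ± 7.74 to 154 ± 18.6 CPM there (log2FC -0.91, adjusted p = 1.59e-08) and was at 259 ± 19.0 and 262 ± 8.49 CPM in C4-2 (log2FC 0.01, adjusted p = 0.925). The TXNIP responses differed by 0.91 (adjusted p = 4.15e-06), and those of ARRDC4 by 0.47 (adjusted p = 0.0581). In all, 4 of the 5 genes of this extended group fell in LNCaP and 2 of 5 in C4-2, where 23.2% and 15.7% of all genes tested fell, with medians of -0.56 and -0.07 against -0.04 and -0.02 over all genes tested.

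**Figure D3:**
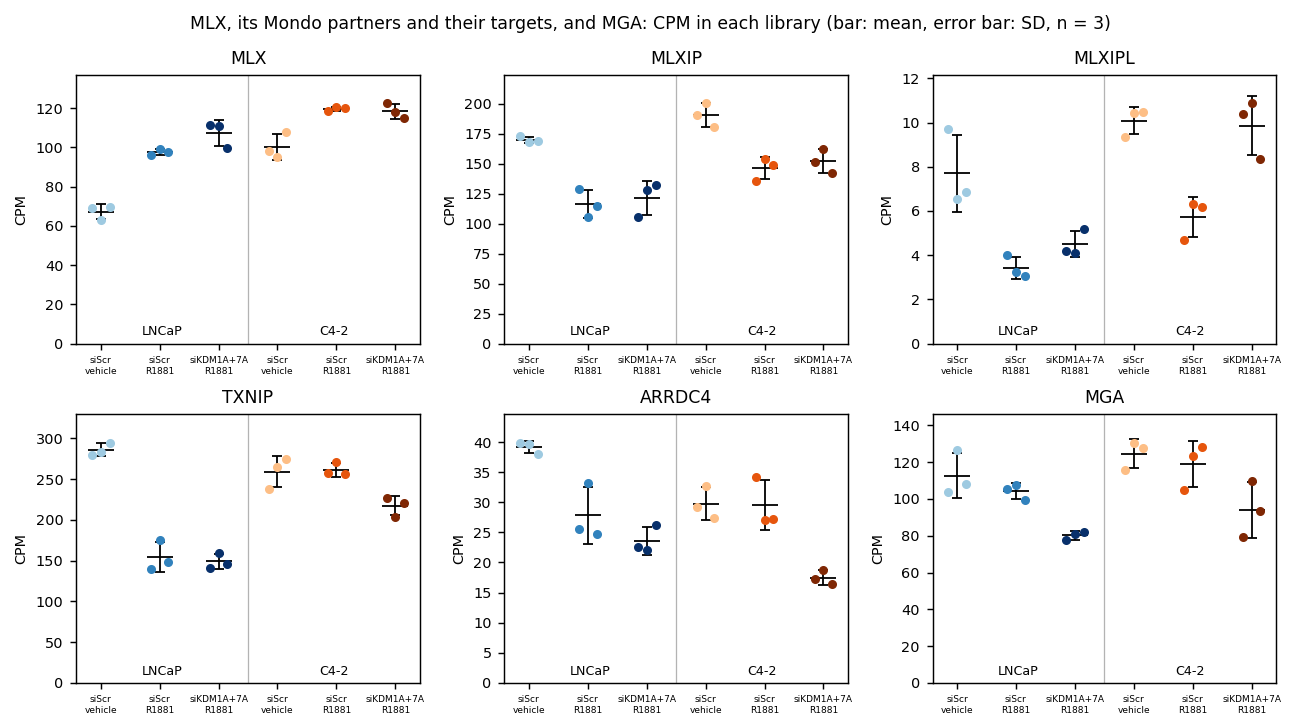
CPM of MLX, its partners MLXIP and MLXIPL, the MondoA targets TXNIP and ARRDC4, and the MAX-binding repressor MGA in each library, with the mean and SD (n = 3). MLX rises with R1881 in both lines while MLXIP and MLXIPL fall, and TXNIP falls in LNCaP from 286 to 154 CPM and stays at 259 and 262 CPM in C4-2.

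The dual knockdown asked which of these levels depended on KDM1A and KDM7A in the presence of R1881. It is compared with the same siScr R1881 libraries that served in the comparison with vehicle, so the values of both comparisons are given side by side. A deviation in these shared libraries would move the log2FC of both comparisons, in opposite directions, and its part in the results was not tested. MXD3 rose and MXD1 fell in both lines, MXD4 rose in LNCaP and MYCL fell in C4-2. In LNCaP 2 members rose and 1 fell, where 8.27% of all genes tested rose and 5.89% fell. In C4-2 1 rose and 2 fell, where 12.7% rose and 10.8% fell. In C4-2 mitochondrial genes took 6.39% to 6.82% of counts with the dual knockdown and 7.10% to 9.08% in siScr libraries, against 6.11% to 6.78% in all LNCaP libraries, and the part of this in the results was not tested.

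MXD3 moved most. With the dual knockdown it was at 13.4, 12.6 and 12.0 CPM in LNCaP and 16.1, 13.0 and 10.3 CPM in C4-2, against 6.84 to 9.14 CPM and 5.69 to 8.41 CPM in siScr R1881 libraries. Neither line had overlapping groups, and the vehicle libraries were at 9.37 to 11.8 CPM in LNCaP and 10.2 to 12.6 CPM in C4-2. The log2FC was 0.73 in LNCaP (SE 0.140, adjusted p = 0.00462) and 0.88 in C4-2 (SE 0.173, adjusted p = 0.00216), and the call held in every fit that left out 1 library. Thinned to the depth of the shallow library, the C4-2 log2FC was 1.10 (adjusted p = 0.00433). RAB24, which shares MXD3 exon bases, rose in LNCaP (log2FC 0.67, adjusted p = 0.00707), and had a log2FC of 0.27 in C4-2 (adjusted p = 0.309), while PRELID1 rose by 0.41 in LNCaP (adjusted p = 0.00617) and had 0.19 in C4-2 (adjusted p = 0.384).

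MXD1 stood at 26.6, 27.8 and 25.9 CPM with the dual knockdown in LNCaP, below the siScr R1881 libraries at 29.1, 36.1 and 34.1 CPM and above vehicle. In C4-2 it was at 11.9, 12.7 and 14.6 CPM, below siScr R1881 at 16.4 to 20.1 CPM and close to vehicle at 11.1 to 11.9 CPM. The log2FC was -0.29 in LNCaP (SE 0.0880, adjusted p = 0.04) and -0.44 in C4-2 (SE 0.121, adjusted p = 0.0157). The LNCaP call was lost in 5 of 9 fits that left out 1 library (siScr R1881 replicate 2 or 3, or any of the dual knockdown libraries, adjusted p 0.0895 to 0.158), and the C4-2 call without siScr R1881 replicate 1 (adjusted p = 0.0864) and at the depth of the shallow library (log2FC -0.18, adjusted p = 0.609). MYCL was at 14.2, 11.8 and 11.9 CPM with the dual knockdown in C4-2, below siScr R1881 at 15.8 to 17.1 CPM and above vehicle at 9.22 to 9.91 CPM. It fell by 0.39 (SE 0.109, adjusted p = 0.0171) there, a call lost without siScr R1881 replicate 1 or 3 or dual knockdown replicate 2 or 3 (adjusted p 0.0685 to 0.0723), and at the depth of the shallow library the log2FC was -0.24 (adjusted p = 0.446). In LNCaP MYCL was at 16.4, 14.8 and 14.4 CPM, overlapping siScr R1881, with a log2FC of -0.16 (adjusted p = 0.3). The MYCL responses differed by -0.21 (adjusted p = 0.396).

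MXD4 rose in LNCaP from 127.1, 100.4 and 105.0 CPM to 140.2, 141.7 and 139.3 CPM, with the 3 dual knockdown libraries close to each other and above all siScr R1881 libraries. The log2FC was 0.36 (SE 0.0939, adjusted p = 0.0201), and the call was lost in 4 of 9 fits that left out 1 library, without siScr R1881 replicate 2 or 3 or dual knockdown replicate 1 or 2 (adjusted p 0.0627 to 0.106). With all 18 libraries in 1 fit the LNCaP adjusted p was 0.0757 for MXD4 and 0.0675 for MXD1, and that fit called 6.13% of all genes. In C4-2 MXD4 was at 112.9, 80.5 and 76.1 CPM, where the high library is the replicate 1 that stands apart. Its log2FC was -0.04 (adjusted p = 0.832), and -0.23 (adjusted p = 0.0198) without that library. MAX was at 56.3, 48.4 and 45.0 CPM in the same C4-2 libraries, with a log2FC of -0.14 (adjusted p = 0.258), and -0.23 (adjusted p = 0.0323) without replicate 1. MYC was at 235, 241.0 and 258 CPM in dual knockdown LNCaP, above all siScr R1881 libraries, with a log2FC of 0.16 (adjusted p = 0.0772), and in C4-2 it was at 203, 176 and 178.5 CPM (log2FC 0.05, adjusted p = 0.687). MXI1, MNT and MLX had log2FC between -0.11 and 0.20 in both lines and none was called.

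**Figure D4:**
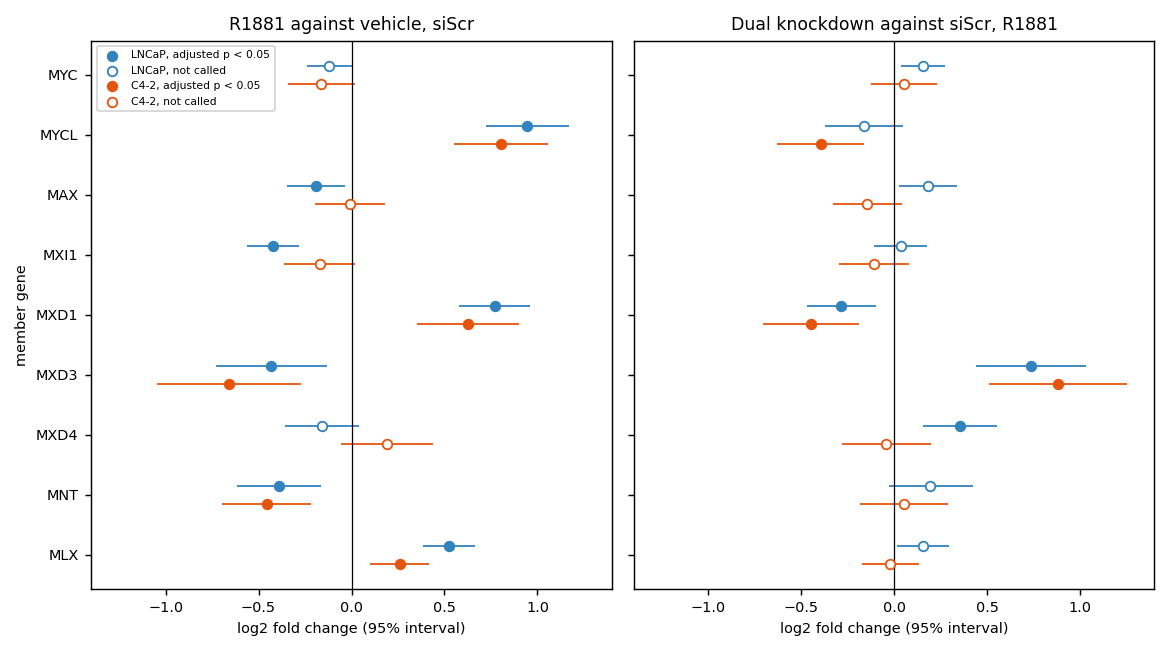
Log2 fold change of 9 members with the 95% interval of the fit, for R1881 against vehicle (left) and for the dual knockdown against siScr with R1881 (right), in LNCaP (blue) and C4-2 (orange), with filled points called at an adjusted p under 0.05. MYCL, MXD1 and MLX lie to the right and MXD3 and MNT to the left in the left panel, and in the right panel MXD3 lies at 0.73 and 0.88 and MXD1 at -0.29 and -0.44.

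The dual knockdown response was called different between the lines for 0 of 9 members in edgeR's test of the interaction, where 6.97% of all genes tested had a higher and 3.88% a lower response in C4-2. MAX (-0.30, adjusted p = 0.0868) and MXD4 (-0.37, adjusted p = 0.158), 2 members, had an unadjusted p under 0.05, and both were called without C4-2 dual knockdown replicate 1 (-0.39, adjusted p = 0.00832, and -0.56, adjusted p = 0.00463). DESeq2's Wald test called 0 members as well, and 12.2% of all genes. MGA, a large MAX-binding repressor, fell in LNCaP from 104 ± 4.32 to 80.2 ± 2.46 CPM (log2FC -0.36, adjusted p = 0.00584) and in C4-2 from 119 ± 12.5 to 94.2 ± 15.3 CPM (log2FC -0.34, adjusted p = 0.0468), with groups that overlap in C4-2. MLXIPL rose in C4-2 to 9.87 ± 1.33 CPM (log2FC 0.78, adjusted p = 0.00237) and had 0.41 in LNCaP (adjusted p = 0.193). ARRDC4 fell by 0.76 (adjusted p = 0.000313) and TXNIP by 0.28 (adjusted p = 0.0186) in C4-2. With the dual knockdown 0 of these 5 genes rose and 1 fell in LNCaP (median -0.03), where 5.89% of all genes fell, and 1 rose and 3 fell in C4-2 (median -0.28), where 12.7% rose and 10.8% fell.

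C4-2 against LNCaP asked how far the androgen-independent line differs in the network. Line and any batch of library making cannot be told apart. MNT and MLX were higher, and MYC and MXD1 lower, in C4-2 with vehicle and with R1881. With vehicle 2 members were higher and 3 lower, where 29.4% of all genes tested were higher and 29.5% lower, and with R1881 3 were higher and 2 lower, where 28.6% were higher and 29.7% lower. MYC had a log2FC of -0.27 (SE 0.0719, adjusted p = 0.00309) with vehicle and -0.32 (SE 0.071, adjusted p = 0.000595) with R1881, and C4-2 lay below LNCaP in all libraries of both comparisons. With the replicate block MYC had a log2FC of -0.19 with vehicle (adjusted p = 0.0836), which was not called. As coded, that block compares the lines at their first replicate, so it cannot decide the difference between the lines. MXD1 was lower by 0.75 (adjusted p = 9.15e-06) and 0.90 (adjusted p = 1.48e-07), with LNCaP at 17.9 to 20.5 and 29.1 to 36.1 CPM against C4-2 at 11.1 to 11.9 and 16.4 to 20.1 CPM. MNT was higher by a log2FC of 0.55 (adjusted p = 0.000283) and 0.47 (adjusted p = 0.00129), and MLX by 0.57 (adjusted p = 2.24e-07) and 0.29 (adjusted p = 0.000507). PSMC3IP, which shares exon bases with MLX on the other strand, was higher in C4-2 too, by a log2FC of 0.99 with vehicle (adjusted p = 2.59e-07) and 0.51 with R1881 (adjusted p = 0.000644), and its part in the MLX counts was not tested. MXD4 was lower with vehicle, at 76.3 to 82.0 against 105.2 to 132.1 CPM (log2FC -0.61, adjusted p = 0.000168), and MAX was higher with R1881, at 53.3 to 57.3 against 41.8 to 45.7 CPM (log2FC 0.33, adjusted p = 0.00101). Without the shallow C4-2 vehicle library, MXI1 was also called lower with vehicle (log2FC -0.23, adjusted p = 0.0203, against -0.18 and 0.0502 with it), MXD4 was called lower with R1881 (adjusted p 0.0407 in place of 0.0527), and the other 5 calls of each comparison stood.

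Genes around and downstream of MYC were taken from lists of known genes, whose medians stand against medians of all genes tested of -0.04 and -0.02 for R1881 and 0.001 and 0.005 for the dual knockdown in LNCaP and C4-2. Of 3 neighbours of MYC (PVT1, CASC11 and PCAT1), 1 rose and 1 fell with R1881 in LNCaP, where 23.5% of all genes tested rose and 23.2% fell. In C4-2 1 fell, where 17.1% rose and 15.7% fell. With the dual knockdown 0 were called, where 8.27% rose and 5.89% fell in LNCaP, and 12.7% and 10.8% in C4-2. PVT1, the non-coding RNA next to MYC, fell with R1881 in LNCaP (log2FC -0.33, adjusted p = 0.0137) from 30.4 ± 3.48 to 24.4 ± 3.40 CPM, and was at 21.3 ± 4.59 and 22.7 ± 0.240 CPM in C4-2 (log2FC 0.03, adjusted p = 0.864). PCAT1 rose in LNCaP (log2FC 0.51, adjusted p = 1.76e-05) and fell in C4-2 (log2FC -0.60, adjusted p = 0.0381), where it was low. Over 18 libraries and 11342 genes of at least 5 CPM, the genes whose log2(CPM + 1) followed MYC most closely were TUSC1 (r = 0.962), SLC25A6 (0.945), ZNF362 (0.940), RPL28 (0.936) and C1orf198 (0.936), and those running most against it were PARP4 (-0.947), TMEM209 (-0.942) and CNTRL (-0.933). All 18 libraries share the difference between the lines, and within LNCaP (9 libraries) and C4-2 (9 libraries) the 5 genes had r of 0.602 (C1orf198) to 0.918 (TUSC1) and of 0.751 to 0.798. The 3 genes that ran against MYC had r of -0.809 (PARP4), -0.792 (TMEM209) and -0.450 (CNTRL) within LNCaP, and of -0.829 to -0.729 within C4-2. Among the members the pooled r and the r within lines differed. MXD4 had a pooled r of 0.804, with 0.704 within LNCaP and 0.074 within C4-2. MXD1 had a pooled r of 0.590 but -0.484 and -0.436 within the lines, and MNT had -0.484 pooled but 0.659 and 0.237 within them. MLX was at -0.581 pooled and at -0.109 and -0.346 within the lines.

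Of 25 nucleolar and ribosome biogenesis genes, R1881 raised 3 and lowered 5 in LNCaP, where 23.5% of all genes tested rose and 23.2% fell, and raised 2 and lowered 3 in C4-2, where 17.1% rose and 15.7% fell, with medians of -0.06 in both. These shares of all genes, and those of 8.27% and 5.89% in LNCaP and 12.7% and 10.8% in C4-2 for rises and falls with the dual knockdown, are the background of each list count that follows. FBL, the rRNA methylase, and TCOF1, the treacle protein of the nucleolus, fell in LNCaP by 0.36 (adjusted p = 0.00272) and 0.33 (adjusted p = 0.00533), while NOP16 and PA2G4 rose by a log2FC of 0.30 (adjusted p = 0.0122) and 0.24 (adjusted p = 0.00845). In C4-2 NPM1 rose (log2FC 0.51, adjusted p = 0.0027) and TCOF1 fell (log2FC -0.58, adjusted p = 3.09e-05). The dual knockdown raised 5 and lowered 2 in LNCaP (median 0.08) and raised 4 and lowered 0 in C4-2 (median 0.04), where BOP1, a ribosome assembly factor, rose by 0.46 (adjusted p = 0.0167) in LNCaP and 0.50 (adjusted p = 0.0112) in C4-2. Of 20 metabolic and growth genes, 9 rose and 2 fell with R1881 in LNCaP (median 0.14), and of 19 tested in C4-2 7 rose and 3 fell (median 0.16). ODC1, an enzyme of polyamine synthesis, rose in LNCaP (log2FC 1.22, adjusted p = 3.34e-11) and in C4-2 (log2FC 1.17, adjusted p = 9.12e-08), HK2 (hexokinase) by 0.81 in LNCaP (adjusted p = 3.77e-08) and LDHA (lactate dehydrogenase) by 0.74 in C4-2 (adjusted p = 3.73e-06), while CAD, the pyrimidine synthesis enzyme, fell by 0.48 (adjusted p = 4.49e-05) and 0.64 (adjusted p = 5.3e-05). TERT fell in C4-2 (log2FC -1.31, adjusted p = 0.000289). With the dual knockdown 8 rose and 0 fell in LNCaP (median 0.13), and 2 rose and 1 fell in C4-2 (median 0.15), and CDK4, the cell cycle kinase, rose by 0.41 (adjusted p = 0.00289) and 0.42 (adjusted p = 0.00661).

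Of 6 genes that MYC is known to hold down, R1881 raised 2 in LNCaP (median 0.28), and raised 3 and lowered 2 in C4-2 (median 0.63). NDRG1, a stress and androgen-responsive gene, rose from 136 ± 8.85 to 707 ± 47.8 CPM in LNCaP (log2FC 2.36, adjusted p = 2.99e-14) and from 60.3 ± 12.0 to 267 ± 10.5 CPM in C4-2 (log2FC 2.15, adjusted p = 3.19e-08). CDKN2B, a cell cycle inhibitor, rose in LNCaP from 2.12 ± 0.232 to 13.1 ± 1.24 CPM (log2FC 2.64, adjusted p = 3.37e-10). In C4-2 it was very low, at 0.466 ± 0.101 and 0.823 ± 0.0467 CPM, and not called (log2FC 0.93, adjusted p = 0.137). In C4-2 THBS1 rose (log2FC 1.18, adjusted p = 1.02e-05) and GADD45A, a growth arrest gene, fell from 32.9 ± 2.08 to 16.6 ± 0.460 CPM (log2FC -0.99, adjusted p = 4.25e-06). With the dual knockdown 3 rose in LNCaP (median 0.16, with 8.27% of all genes rising) and 2 fell in C4-2 (median -0.30), where GADD45A was at 9.37 ± 0.850 CPM (log2FC -0.83, adjusted p = 8.76e-05). Of 10 proliferation genes, R1881 raised 2 and lowered 2 in LNCaP (median -0.07) and lowered 7 in C4-2 (median -0.37, with 15.7% of all genes falling), and the dual knockdown lowered 1 in LNCaP (median 0.08) and raised 4 in C4-2 (median 0.20), with AURKB, the mitotic kinase, at a log2FC of 0.58 (adjusted p = 0.000866). The replication licensing genes MCM2 (log2FC -0.69, adjusted p = 5.17e-06) and MCM3 (log2FC -0.62, adjusted p = 4.19e-05) fell in C4-2 with R1881.

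Genes that stabilise or remove MYC protein and the cofactors it or its repressors recruit were listed too. Of 10 turnover genes R1881 raised 1 and lowered 3 in LNCaP (median -0.001) and lowered 3 in C4-2 (median -0.17), among them the deubiquitinase USP36 at -0.57 (adjusted p = 1.16e-05) and -0.37 (adjusted p = 0.00398). With the dual knockdown GSK3B, the kinase that marks MYC for removal, fell by 0.26 (adjusted p = 0.0118) in LNCaP and by 0.47 (adjusted p = 0.000926) in C4-2, and FBXW7, the ubiquitin ligase subunit that reads that mark, fell by 0.63 in C4-2 (adjusted p = 0.000584). In that comparison 1 of the 10 turnover genes rose and 1 fell in LNCaP (median -0.10), and 1 rose and 2 fell in C4-2 (median 0.12). Of 15 cofactors R1881 raised 2 and lowered 6 in LNCaP (median -0.09, with 23.2% of all genes falling) and raised 1 and lowered 2 in C4-2 (median -0.12), and the dual knockdown raised 1 and lowered 1 in each line (medians 0.01 and -0.06). NCOR1, a corepressor, rose with R1881 by 0.58 (adjusted p = 3.2e-07) and 0.49 (adjusted p = 0.000314), and moved down by 0.20 (adjusted p = 0.028) in LNCaP and up by 0.24 (adjusted p = 0.0427) in C4-2 with the dual knockdown. SIN3B, through which MXD proteins act, fell by 0.58 with R1881 in LNCaP (adjusted p = 6.01e-06) and WDR5, a MYC cofactor, by 0.48 with the dual knockdown in C4-2 (adjusted p = 0.000277).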

How the data were processed

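RNA Seq was deposited for 18 libraries of LNCaP and C4-2 cells, 3 in each of 6 groups, assigned by sample title. The deposited values are raw counts per gene, without normalisation. The authors captured poly(A) RNA and sequenced read pairs, removed adapters with TrimGalore, used STAR with GRCh38 and counted pairs with featureCounts 1.5.0-p1 over Ensembl 83. Per the file headers no strand option was set, so overlapping genes on either strand share uncertainty. The 18 titles number the replicates, and whether they are separate cultures is not stated, so p-values measure the spread between these libraries. Libraries were not paired by number in the main fits. The correlations of deviations between libraries of the same number ranged from -0.169 to 0.322, which cannot decide whether they were paired.

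Symbols were taken from GENCODE 29. Genes were tested in R 4.3.3 with edgeR 4.0.16 (TMM, filterByExpr with a minimum count of 10 and total of 15, 2-sided quasi-likelihood F-test, Benjamini-Hochberg adjustment over all genes tested). The 9 libraries of each line made 1 fit for R1881 and for the dual knockdown, and all 18 made 1 fit for differences between lines. A gene was called at an adjusted p under 0.05. CPM values use TMM-scaled totals of all 18 libraries, and RPKM divides these by the exon length in the files. RPKM from unscaled totals, RLE factors, DESeq2 1.42.0, 2 other filters, a 2-fold rule, a replicate block, counts thinned to the smallest fitted library by drawing without replacement (1 draw), other sets of libraries and each library left out were alternatives. Members and lists were chosen with earlier results of these data known. All 10 members are named, and from each list the genes named are among the 2 largest rises and 2 largest falls that were called per line and comparison with a mean of at least 1 CPM. The 5 genes most like MYC and the 3 least like it were taken by Pearson's r. Genes of an overlapping exon, the extended network and the neighbours of MYC are given for all their members where space allowed. Counting intervals and floors cover counting error only.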

Additional observations from a re-analysis of the deposited data

Results flagged for a closer look

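Of the members, 1 had a response to R1881 that differed between the lines in the test of the interaction. Of all genes tested, 6.05% had a higher and 7.95% a lower response in C4-2. MLX rose less in C4-2 than in LNCaP, by -0.28 on the log2 scale (adjusted p = 0.0487). The call was lost in 14 of 18 fits that left out 1 library, and also with RLE factors, no filter, a minimum of 10 counts in every library, the replicate block, thinned counts and the groups compared alone.

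Among the other genes named, these responses to R1881 differed between the lines, given as the log2FC in C4-2 minus that in LNCaP with edgeR's adjusted p. TXNIP differed by 0.91 (adjusted p = 4.15e-06), GADD45A by -0.95 (adjusted p = 0.00037), CDKN2B by -1.71 (adjusted p = 0.00726), NDRG2 by -0.53 (adjusted p = 0.00535) and THBS1 by 0.78 (adjusted p = 0.0182). PCAT1 differed by -1.07 (adjusted p = 0.000277) and TERT by -1.36 (adjusted p = 0.0195). CDKN2B was at 0.466 CPM with vehicle and 0.823 CPM with R1881 in C4-2, and TERT had a mean of 2.95 CPM over all libraries. The differences of these 2 genes therefore rest on few counts. AURKA differed by -0.52 (adjusted p = 0.00167), GSK3B by 0.30 (adjusted p = 0.0382), SIN3B by 0.43 (adjusted p = 0.0116), HK2 by -0.41 (adjusted p = 0.016) and TFRC by -0.43 (adjusted p = 0.00613). Of 10 proliferation genes 7 had a lower response in C4-2, where 7.95% of all genes tested had a lower and 6.05% a higher response. Among the 7 were MKI67 (-0.50, adjusted p = 0.0275), AURKB (-0.52, adjusted p = 0.00804), MCM2 (-0.53, adjusted p = 0.00103), MCM3 (-0.57, adjusted p = 0.000314), MCM6 (-0.50, adjusted p = 0.000761) and PCNA (-0.44, adjusted p = 0.0119).

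The dual knockdown response differed for ARRDC4 (-0.52, adjusted p = 0.0434), WDR5 (-0.48, adjusted p = 0.00336), NCOR1 (0.46, adjusted p = 0.00245), TFRC (0.39, adjusted p = 0.0154), GADD45A (-0.90, adjusted p = 0.0014) and TOP2A (0.53, adjusted p = 0.0154). The knockdown of both demethylases was deeper in C4-2, and the part of this in these differences was not tested.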

How the results depend on the processing

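No called member changed direction under the alternatives run. Of 1584 values of single members, 1457 kept their side of the threshold, 95 lost it and 32 gained it, and 22 that were not called either way changed sign. Under the 2-fold rule of the study, 0 members were called in each comparison. That rule called 12.3% and 9.07% of all genes for R1881 in LNCaP and C4-2, and 0.286% and 3.94% for the dual knockdown. Between the lines it called 24.2% with vehicle and 23.8% with R1881. For the differences of responses it called 4.32% for R1881 and 1.99% for the dual knockdown. Thinned to the smallest fitted library, 3 members were called for R1881 and 1 for the dual knockdown in C4-2, with fewer counts by construction. Thinning called 28.2% and 17.6% of all genes in these comparisons. With 1 library left out, the members called ranged from 5 to 8 for R1881 in LNCaP, 3 to 6 for R1881 in C4-2, 1 to 4 and 1 to 5 for the dual knockdown in LNCaP and C4-2, 5 to 7 and 5 to 6 between the lines with vehicle and with R1881, 0 to 1 for the difference of R1881 responses and 0 to 2 for that of dual knockdown responses. The share of all genes called in those fits ran from 38.3% to 44.6% for R1881 in LNCaP and 22.9% to 37.7% in C4-2. It ran from 14.1% to 26.8% for the dual knockdown in C4-2. Between the lines it ran from 50.1% to 57.7% with vehicle and 50.2% to 58.7% with R1881. For the differences of responses it ran from 10% to 15.7% for R1881 and 6.45% to 17.9% for the dual knockdown. All 18 libraries in 1 fit left 1 member called for the dual knockdown in LNCaP, in a fit that called 6.13% of all genes, and with 1 library left out that share ran from 4.70% to 16.9%, so calls were lost over all genes as well. For the difference of R1881 responses 0 members were called with RLE factors (14% of all genes), with no filter (5.63%), when every library needed 10 counts (20.6%), with thinned counts (9.44%) and with the groups compared alone (14.6%). For that of the dual knockdown, 1 member was called with no filter (4.55% of all genes), when every library needed 10 counts (18%) and with thinned counts (6.47%). The cause was not tested. With the replicate block, 7 members were called for R1881 in LNCaP (46% of all genes) and 5 in C4-2 (34.1%). The dual knockdown had 3 in each line (14.8% of all genes in LNCaP and 25.5% in C4-2). Both differences of responses had 0 (14.1% of all genes for R1881 and 12.2% for the dual knockdown). Between the lines the block called 4 members with vehicle (50.6% of all genes) and 5 with R1881 (50.8%). MYC was at -0.19 (adjusted p = 0.0836) between the lines with vehicle. As coded, the block compares the lines at their first replicate, so these counts cannot decide the difference between the lines. Ranking by Spearman kept 2 of the 5 genes most like MYC. RPKM with unscaled totals moved by more than 1 SD in 18 of 54 group means. Depth limits MYCN and the low members most.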
